A study of Mus musculus with 13 samples.

Results

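The genes described here are the clustered, replication-dependent histone genes of mouse embryonic stem (ES) cells. They were taken from the gene count table as the rows whose symbol begins with Hist1h, Hist2h, Hist3h or Hist4h and whose counts summed to at least 30 over the 6 RNA libraries. Of the 24079 rows of the table, 68 carried such a symbol and 38 reached the minimum. Of these, 33 belong to the Hist1 cluster on chromosome 13, 3 to the Hist2 cluster on chromosome 3, and 1 each to Hist3 on chromosome 11 and Hist4 on chromosome 6. By protein they were 5 linker histone H1 genes, 3 H2A, 13 H2B, 8 H3 and 9 H4 genes. CGR8, a feeder-free mouse ES cell line, was kept unsynchronised with LIF and serum on gelatin. Cells received either 0.5% DMSO, the solvent (control), or 10 µM PhenDC3, a small molecule that binds and stabilises G-quadruplexes (G4), and both groups were collected after 48 h. By the study's methods, the PhenDC3 was itself given in 0.5% DMSO. RNA-seq covered 3 control and 3 PhenDC3 libraries. The same conditions were profiled by SNS-seq, which sequences short nascent strands and so maps replication origins, in 3 control and 2 PhenDC3 peak lists. The study's methods call the control SNS-seq samples biological replicates, but for the RNA libraries no source used here says whether they were separate cultures, so p-values measure the spread between these libraries only.

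Replication-dependent histone genes supply the histones that package newly made DNA, and their mRNAs accumulate in S phase and are degraded when DNA synthesis stops. Their transcripts are unusual in metazoan cells, because they normally have no introns and end in a conserved stem-loop rather than in a poly(A) tail. The stem-loop is bound by SLBP, and the U7 small nuclear ribonucleoprotein directs the cut that follows it. NPAT, a substrate of cyclin E-CDK2, activates transcription of the clusters. Some clustered genes can also yield longer, polyadenylated mRNAs, and the replacement histones, such as H3.3 and H2A.Z, are made from ordinary polyadenylated mRNAs through the whole cell cycle. The RNA libraries were made with a kit for mRNA, a preparation that favours polyadenylated transcripts, so the values are those of the histone RNA that such libraries retain and not of total histone mRNA.

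Total counts ranged from 22232014 to 29486502 per library, and no pair of replicates agreed within counting noise. Summed levels of 10 ES cell markers were 7780 to 8490 normalised counts per 1000000 counts (CPM) in the controls and 9290 to 10300 CPM with PhenDC3. Among these markers, 4 rose and 3 fell. Calls of markers are from the edgeR fit with its standard low-count filter, in which 18% of all genes rose and 18.7% fell. The 6 primitive endoderm markers summed to 47.4 to 111 CPM in controls and 96.4 to 158 CPM with PhenDC3, and 4 of the 6 rose. The 6 fibroblast markers summed to 5.88 to 6.84 CPM in controls and 3.22 to 5.92 CPM with PhenDC3. Of them, Thy1 had the highest level and fell, from a mean of 5.03 to 2.02 CPM. The means of Col1a1 (0.863 to 1.37 CPM) and Col1a2 (0.264 to 0.82 CPM) were higher with PhenDC3 and did not pass the test. Col3a1 and Postn had 10 and 6 reads in all, and Dcn was at 0 in every library. Whether a shift in cell state plays a part in the histone values was not tested.

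The stem-loop was searched for in the 150 bases after the stop codon of each curated RefSeq transcript (GRCm38.p6, the assembly of mm10), and it was found for 35 of the 38 genes, 25 to 56 bases after the stop codon. Only 5 different stem-loop sequences occurred among the 35 genes. They are shown because this element, in place of a poly(A) tail, sets these mRNAs apart from those that the libraries favour. Each is given on the gene's own strand with the stem-loop in capitals and 5 flanking bases on either side.
Hist1h1a, chr13:23764387-23764412, plus strand: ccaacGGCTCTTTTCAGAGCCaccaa
Hist1h3c, chr13:23745042-23745067, minus strand: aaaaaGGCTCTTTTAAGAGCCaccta
Hist1h4d, chr13:23581945-23581970, plus strand: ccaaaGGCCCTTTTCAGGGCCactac
Hist1h4b, chr13:23757361-23757386, plus strand: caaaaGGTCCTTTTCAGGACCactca
Hist2h4, chr3:96262934-96262959, minus strand: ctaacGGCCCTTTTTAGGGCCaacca
The sequence in Hist1h1a was the one in 20 genes, among them all 5 H1 genes, and that in Hist1h3c was found in 7 H2B and H3 genes. The H4 genes had their own forms. That of Hist1h4d was in 6 genes, and those of Hist1h4b and Hist2h4 were in 1 gene each. No match lay in this window for Hist2h2be, Hist1h3g and Hist1h4a, which says only that these letters were not there.

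RefSeq promoter sequences, from 250 bases before to 50 bases after the annotated start, were held for 33 of the 38 genes (34 entries, since Hist1h2be has 2 annotated starts). Motifs were counted on both strands, and a base could belong to more than one motif. The CCAAT box (CCAAT) was present in 29 of 34 entries, or 85.3%, against 37.4% of all 32851 promoters of the same length. Every H1, H2A, H2B and H3 entry held it, whereas 3 of 8 H4 entries did. A TATA box (TATAAA) was present in 52.9% of the entries and in 13.6% of all promoters. The octamer (ATTTGCAT), the motif recognised by Oct-family factors, was present in 6 of 12 H2B and 2 of 3 H2A entries. It was in no H1, H3 or H4 entry and in 1.74% of all promoters. Entries can overlap: those of Hist1h2ae and Hist1h2bg cover nearly the same bases on opposite strands, so their octamer is counted in both classes. A G4 motif, taken as 4 runs of at least 3 G separated by 1 to 7 bases on either strand, occurred in the entries of 2 genes, Hist1h1a and Hist1h4c, which is 5.88% of the 34 entries against 18.6% of all promoters. One promoter is printed for each of 4 classes, with the CCAAT box, TATA box and octamer of either strand in capitals.
Hist1h1a, chr13:23763418-23763717, plus strand: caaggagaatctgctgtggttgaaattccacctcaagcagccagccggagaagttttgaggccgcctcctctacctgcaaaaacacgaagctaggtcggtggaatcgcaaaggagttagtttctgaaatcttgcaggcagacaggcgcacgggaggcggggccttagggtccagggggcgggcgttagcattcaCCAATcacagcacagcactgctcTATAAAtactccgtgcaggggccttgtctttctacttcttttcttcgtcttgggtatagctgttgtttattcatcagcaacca
Hist2h2bb, chr3:96269450-96269749, plus strand: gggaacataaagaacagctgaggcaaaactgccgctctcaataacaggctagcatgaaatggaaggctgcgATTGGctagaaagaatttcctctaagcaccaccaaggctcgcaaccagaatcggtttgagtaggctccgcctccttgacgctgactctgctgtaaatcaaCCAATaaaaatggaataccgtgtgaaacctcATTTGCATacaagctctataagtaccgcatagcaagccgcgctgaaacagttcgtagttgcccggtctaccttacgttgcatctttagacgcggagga
Hist1h3b, chr13:23752095-23752394, plus strand: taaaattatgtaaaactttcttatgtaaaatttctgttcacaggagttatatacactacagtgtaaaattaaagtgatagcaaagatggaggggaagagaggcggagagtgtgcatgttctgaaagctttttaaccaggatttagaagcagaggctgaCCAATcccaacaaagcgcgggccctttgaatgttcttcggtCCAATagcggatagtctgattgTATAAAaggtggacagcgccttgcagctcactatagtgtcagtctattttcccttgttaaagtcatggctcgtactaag
Hist1h4d, chr13:23581318-23581617, plus strand: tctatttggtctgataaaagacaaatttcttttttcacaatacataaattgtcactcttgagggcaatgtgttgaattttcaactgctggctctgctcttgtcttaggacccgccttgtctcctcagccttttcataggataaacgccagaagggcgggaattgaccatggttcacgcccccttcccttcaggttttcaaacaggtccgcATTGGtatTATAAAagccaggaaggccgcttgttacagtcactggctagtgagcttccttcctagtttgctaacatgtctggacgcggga
The Hist2h2bb promoter held the octamer and a CCAAT box on each strand but no TATAAA, and the other 3 held both a CCAAT box and TATAAA. A match describes the letters only and is not evidence that a factor binds.

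The question put to the RNA libraries was whether the transcript level of these genes differed between PhenDC3-treated and control cells. It was lower with PhenDC3 for nearly all of them. In a fit of the 14816 genes with at least 30 summed counts, which takes in every one of the 38, 33 of the 38 fell and none rose with the adjusted p limited to 0.05 (edgeR's quasi-likelihood test with Benjamini-Hochberg adjustment), while 17.9% of all genes in that fit fell and 17.2% rose. Among the 3825 genes with summed counts between 30 and 429, the range of the histone genes, 12% fell. The median log2 fold change of the 38 genes was -2.54, beside 0.013 over all genes of the fit, and every one of the 38 fold changes was negative, so that none rose at an unadjusted p of 0.05 either. In 33 of the 38, all 3 PhenDC3 libraries lay below all 3 controls, an order seen in 24.8% of all genes and in 17.5% of those with the same range of counts. The standard low-count filter of edgeR kept 15 of the 38, of which 14 fell, against 18.7% of the 13972 genes it kept. All 15 passed it with all 3 control libraries over the limit of 0.388 CPM and only 2 with all 3 PhenDC3 libraries over it. Values of single genes are therefore given from the fit that holds all 38. The minimum of 30 summed counts takes no account of group, but some genes also reached it almost wholly through control reads. Hist1h3i had 32 control and 0 PhenDC3 reads, Hist1h2bh 33 and 1, and Hist1h3f 55 and 2. The 33 of 38 is thus a description of the genes so chosen. DESeq2 called 29 of the 38 lower and none higher, against 16.9% of all genes lower.

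Summed over the 38 genes, the level was 53.1, 23.5 and 35 CPM in the 3 control libraries and 5.79, 5.44 and 12.5 CPM in the 3 PhenDC3 libraries. The groups did not overlap, with control 1 highest among the controls and PhenDC3 library 3 highest among the treated. The means were 37.2 ± 14.9 and 7.92 ± 3.99 CPM (SD, n = 3), which is a 4.69-fold lower sum with PhenDC3. In bulk RNA, fewer cells in S phase and less histone RNA per cell cannot be told apart. The study reported an unchanged cell cycle profile of ES cells after the same PhenDC3 treatment, which was not re-examined here. The sum was lower in each class without overlap, by 4.04-fold for H1, 2.37-fold for H2A, 4.78-fold for H2B, 7.90-fold for H3 and 6.16-fold for H4. Whether the classes differ from each other in their change was not tested.

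**Figure D1:**
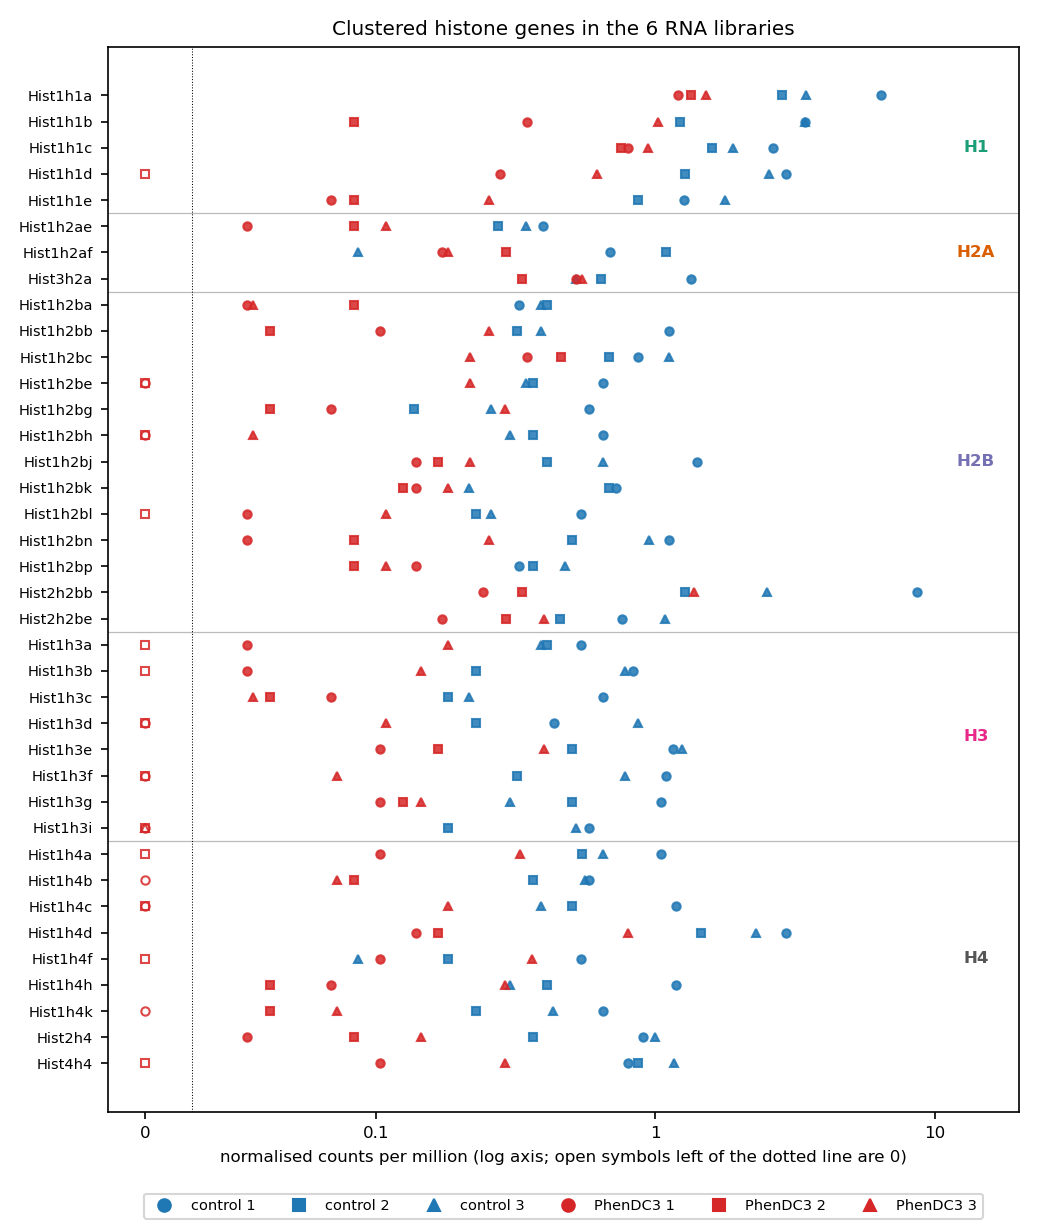
Normalised CPM (log axis) of the 38 clustered histone genes in each RNA library, ordered by class, with controls in blue and PhenDC3 in red and values of 0 as open symbols left of the dotted line. In 33 of the 38 rows every red point lies to the left of every blue point.

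All 5 H1 genes fell. They encode linker histones, which bind the DNA between nucleosomes. Hist1h1a, the gene with the most counts of the 38, was at 6.44, 2.83 and 3.46 CPM in the controls and at 1.21, 1.34 and 1.52 CPM with PhenDC3. The treated libraries lay close together, and even the lowest control was above all of them (log2 fold change -1.65 ± 0.33 SE, adjusted p = 0.00503, edgeR). Hist1h1c was the least changed of the class, at 2.64, 1.6 and 1.9 CPM against 0.798, 0.753 and 0.944 CPM (-1.30 ± 0.29, edgeR adjusted p = 0.00855). Hist1h1e changed most, from 1.27, 0.866 and 1.77 CPM to 0.0694, 0.0836 and 0.254 CPM (-3.21 ± 0.53, edgeR adjusted p = 0.00191). Hist1h1b and Hist1h1d lay between these, at -2.45 and -2.87 on the log2 scale, and Hist1h1d had no read in PhenDC3 library 2. The fall of Hist1h1a, Hist1h1c, Hist1h1d and Hist1h1e was called with any 1 of the 6 libraries left out.

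Of the 3 H2A genes, 1 fell. Hist1h2ae was at 0.398, 0.274 and 0.346 CPM in controls and 0.0347, 0.0836 and 0.109 CPM with PhenDC3. It passed the edgeR test (-2.12 ± 0.59, edgeR adjusted p = 0.0209) but was not called by DESeq2 (adjusted p = 0.0722). With 1 library left out, edgeR called it in 3 of the 6 fits. Hist1h2af did not pass the test (-1.52 ± 0.73, edgeR adjusted p = 0.133). Its control 3, at 0.0865 CPM, lay below all PhenDC3 libraries while controls 1 and 2 were at 0.688 and 1.09 CPM. Hist3h2a, the single member of the Hist3 cluster, was at 1.34, 0.638 and 0.519 CPM against 0.520, 0.335 and 0.545 CPM, so that its groups overlapped (-0.84 ± 0.45, edgeR adjusted p = 0.176). Most H2A genes of the clusters had too few counts to enter.

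Of the 13 H2B genes, 11 fell. Hist2h2bb had values that spread widely, with 8.65, 1.28 and 2.51 CPM in the controls and 0.243, 0.335 and 1.38 CPM with PhenDC3. PhenDC3 library 3 exceeded control 2, and control 1 alone held most of the control counts (-2.67 ± 0.81, edgeR adjusted p = 0.032). Its call was lost when control 1 (-1.53), PhenDC3 library 1 (-2.26) or PhenDC3 library 2 (-2.37) was left out of the fit with the standard filter. Hist1h2bn was at 1.12, 0.502 and 0.951 CPM in controls and at 0.0347, 0.0836 and 0.254 CPM with PhenDC3, without overlap (-2.75 ± 0.62, edgeR adjusted p = 0.00824). Hist1h2ba, which encodes an H2B variant best known from testis, was at 0.326, 0.410 and 0.389 CPM against 0.0347, 0.0836 and 0.0363 CPM (-2.79 ± 0.60, edgeR adjusted p = 0.00703). Hist1h2bh had 33 reads over the controls and 1 over the PhenDC3 libraries, so its fold is poorly fixed (-4.70, 95% interval -6.69 to -2.72). The smallest falls of the class were those of Hist1h2bc (-1.39 ± 0.41, edgeR adjusted p = 0.0259) and Hist2h2be (-1.41 ± 0.48, edgeR adjusted p = 0.0458), the latter not called by DESeq2 (adjusted p = 0.0713). Hist1h2be, with all PhenDC3 libraries below all controls, just missed the threshold (edgeR adjusted p = 0.0519), and Hist1h2bg, whose groups overlapped, did not pass (edgeR adjusted p = 0.228).

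All 8 H3 genes fell. Hist1h3e, the H3 gene with the most counts, was at 1.16, 0.502 and 1.25 CPM in controls and at 0.104, 0.167 and 0.399 CPM with PhenDC3, without overlap (-2.10 ± 0.55, edgeR adjusted p = 0.0168). Hist1h3f had 55 reads in the controls and 2 with PhenDC3, both in library 3 (-4.65, 95% interval -6.64 to -2.65, edgeR adjusted p = 0.00387). Hist1h3i was at 0.579, 0.182 and 0.519 CPM in controls and had no read in any PhenDC3 library, which places it at least 11.8-fold lower when the treated group is set at 3 counts in all. The remaining 5 genes, Hist1h3a, Hist1h3b, Hist1h3c, Hist1h3d and Hist1h3g, had log2 fold changes between -3.61 and -2.29.

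Of the 9 H4 genes, 8 fell. Hist1h4d, the most abundant of them, was at 2.93, 1.46 and 2.29 CPM in controls and at 0.139, 0.167 and 0.799 CPM with PhenDC3 (-2.58 ± 0.57, edgeR adjusted p = 0.00769). The lowest control stood clear of the highest treated library. Hist4h4, the only member of the Hist4 cluster, was at 0.796, 0.866 and 1.17 CPM against 0.104, 0 and 0.290 CPM (-2.75 ± 0.65, edgeR adjusted p = 0.0108). Hist1h4a (-2.32), Hist1h4b (-3.22), Hist1h4c (-3.41), Hist1h4h (-2.22) and Hist1h4k (-3.41) changed by similar amounts. Hist1h4f was the exception, at 0.543, 0.182 and 0.0865 CPM in controls and 0.104, 0 and 0.363 CPM with PhenDC3, and its groups overlapped (-0.80 ± 0.94, edgeR adjusted p = 0.539).

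**Figure D2:**
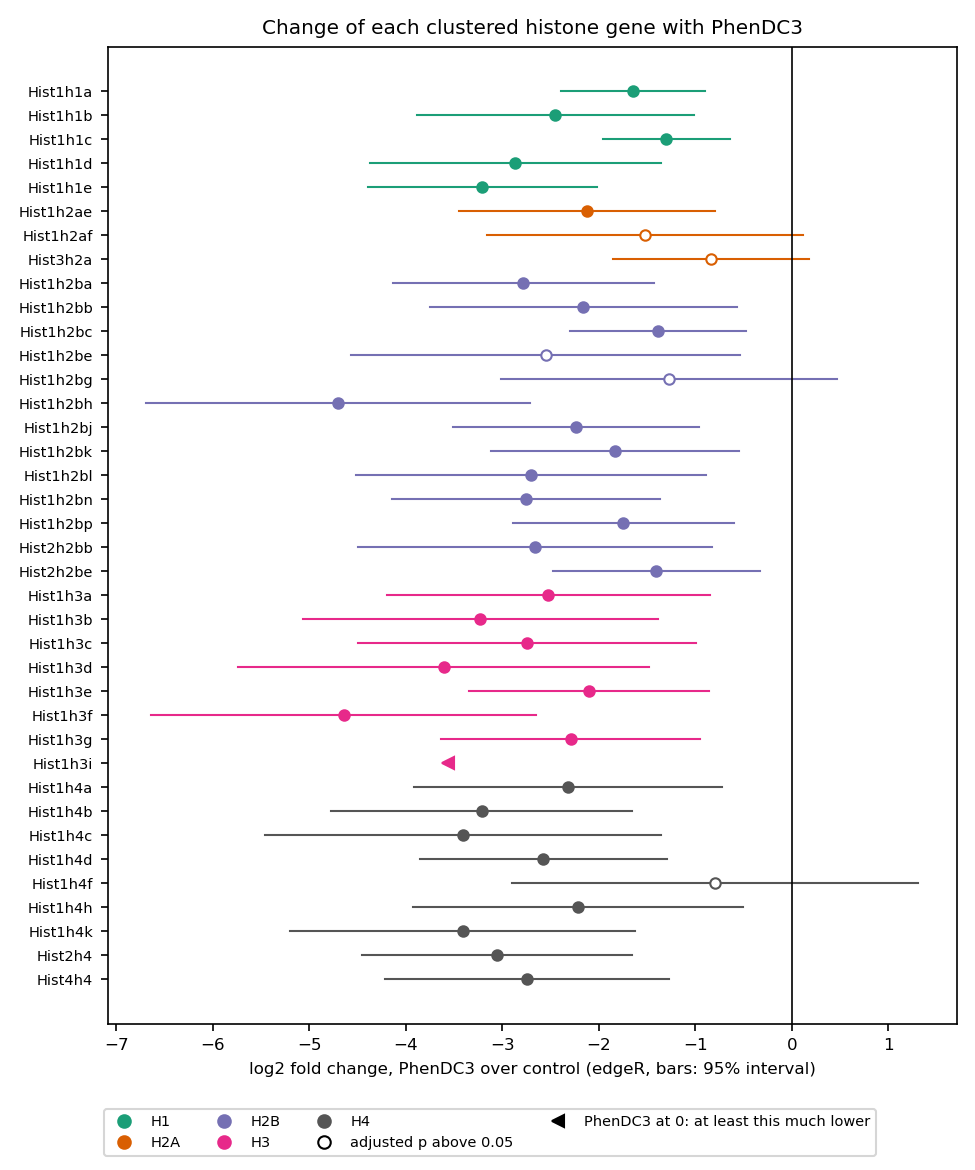
Log2 fold change of each gene, PhenDC3 over control, with 95% intervals from the edgeR fit of all genes with at least 30 summed counts, coloured by class. Filled points mark the genes that fell, apart from Hist1h3i, drawn as an arrowhead at its bound; the 5 open points are Hist1h2af, Hist3h2a, Hist1h2be, Hist1h2bg and Hist1h4f.

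The libraries were ordered alike across the genes. Control 1 was the highest of the controls in 28 of the 38 genes and control 2 the lowest in 25, and PhenDC3 library 3 was the highest of the treated libraries in 31. Genes without a read numbered 8 in PhenDC3 library 1, 13 in library 2 and 1 in library 3, and none in any control. The genes thus did not vary independently, and the 38 values are not 38 replicates of the comparison. When each library was left out in turn from the fit of all 38, the number of genes called lower was 16 without control 1, 32 without control 2, 33 without control 3, 14 without PhenDC3 library 1, 22 without library 2 and 29 without library 3. Over all genes of these fits, 14.3%, 15.5% and 18.6% were called lower without control 1, 2 and 3, and 11%, 13.8% and 12.7% without PhenDC3 library 1, 2 and 3. Called lower in all 6 of these fits were 14 genes, namely Hist1h1a, Hist1h1c, Hist1h1d, Hist1h1e, Hist1h2ba, Hist1h2bh, Hist1h2bn, Hist1h3f, Hist1h3i, Hist1h4b, Hist1h4d, Hist1h4k, Hist2h4 and Hist4h4, and 37 of the 38 had a negative fold change in all 6, Hist1h4f being the exception. The share of all genes that met either condition was not counted, and the 6 fits share most of their libraries. Median fold changes of the 38 ran from -3.56 without PhenDC3 library 3 to -2.09 without control 1.

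**Figure D3:**
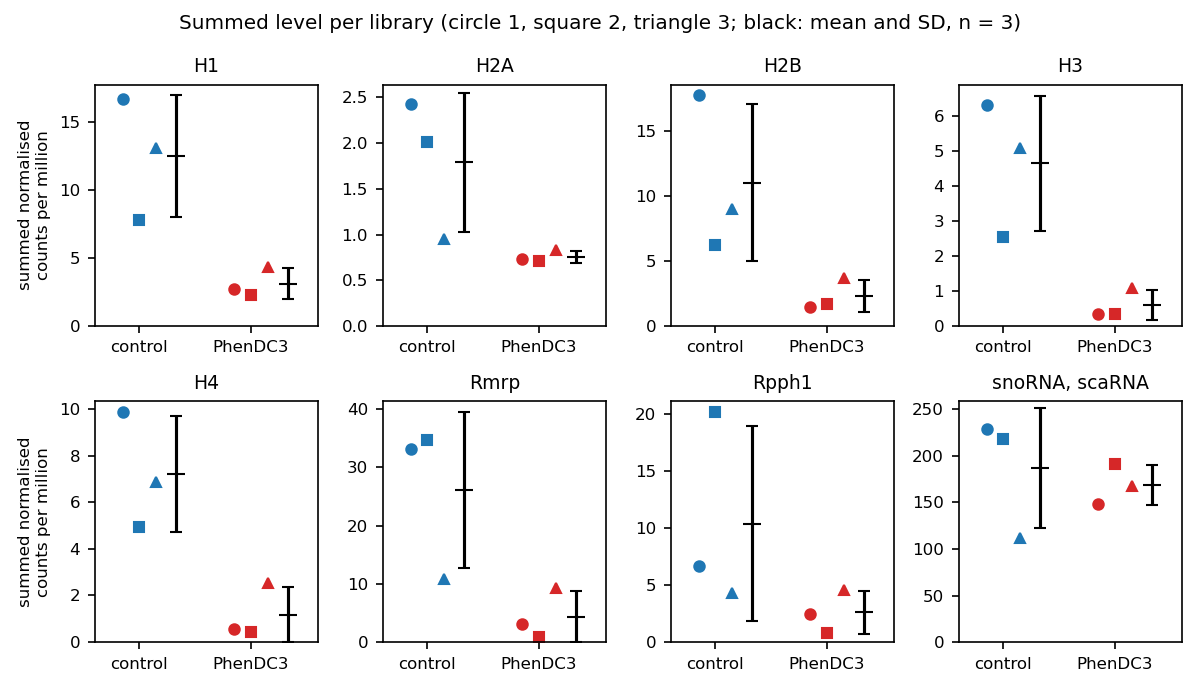
Summed normalised CPM of each histone class, of the RNAs Rmrp and Rpph1, and of 80 snoRNA and scaRNA genes in each RNA library, with the mean and SD (n = 3) in black. PhenDC3 lies below control in every library for the 5 histone classes and Rmrp, and the groups overlap for Rpph1 and for the snoRNAs and scaRNAs.

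Counts were low, with 30 of the 38 genes under 100 reads in all 6 libraries together. The 21 genes with 30 to 60 summed counts included 18 that fell. The share of all genes in that narrow range was not counted, and among those with 30 to 429 summed counts 12% fell. Just inside the minimum were Hist1h2bl, with 26 reads over the controls and 4 over the PhenDC3 libraries, and Hist1h2ae, with 25 and 6. Just outside it were Hist1h4i, with 21, 2 and 2 reads in the controls and 1, 0 and 3 with PhenDC3, and Hist1h2ak, with 13, 5 and 7 against 0, 0 and 3. All 8 rows with 15 to 29 summed counts had a lower mean CPM with PhenDC3, some only slightly. Hist3h2ba was at a mean of 0.142 CPM in controls and 0.136 with PhenDC3, and Hist1h2ai at 0.182 and 0.143. How many of all table rows in that range had a lower mean was not counted. Of the 30 rows below the minimum, 11 had no read at all and 19 had 1 to 29. In 6 of those 19 all PhenDC3 libraries were below all controls, and in 0 they were above, beside 3.77% and 9.47% of the 4032 table rows with 1 to 29 counts.

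Several of these genes are near copies of each other, which bears on each single value. For each gene, the share of 50-base windows of its transcripts that occurred in no other curated RefSeq transcript on either strand was computed. It was 100% for 5 genes, Hist1h1a, Hist1h1b, Hist2h2bb, Hist2h2be and Hist4h4, and had a median of 53.2% over the 38. In 14 genes it was under 50%, with the lowest value, 22.8%, for Hist1h3b. A counter that leaves out reads with several alignments would undercount such genes, and how reads of equal fit were placed is not given in the sources used here, so values of single H2A, H2B, H3 and H4 genes with low shares are uncertain. For the rows below the minimum with no read, silent genes and copies whose reads were left out cannot be told apart. The 7 genes with a share of at least 90% had a median log2 fold change of -2.45, and the other 31 had one of -2.55. Per kilobase of exon, the highest mean control levels were those of Hist2h2bb at 8.40, Hist1h1a at 5.69 and Hist1h4d at 5.55 CPM per kb, and the lowest was that of Hist1h2be at 0.181 CPM per kb.

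In 5 genes there was a curated transcript that ran more than 100 bases past the stop codon, and in each of them that stretch held a canonical poly(A) signal (AATAAA or ATTAAA). They were Hist2h2be, with 2192 bases after the stop codon, Hist1h2be with 1906, Hist1h3e with 480, Hist1h2bc with 314 and Hist1h2bp with 150. Their log2 fold changes ran from -2.55 to -1.39 with a median of -1.75, whereas the 33 genes without such a transcript had a median of -2.67. This is a description over genes, and which transcript form the counted reads came from was not tested. Among the 33 were the least changed genes, Hist1h4f and Hist3h2a, as well as the most changed.

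Other genes of the pathway were looked at next. Of the 11 replacement histone genes that could be tested, 4 fell, 1 rose and 6 did not pass the test, in the edgeR fit with the standard filter, in which 18.7% of genes fell and 18% rose. H2afz, which encodes H2A.Z, was at 1020, 1460 and 1200 CPM in controls and at 515, 526 and 537 CPM with PhenDC3 (-1.22 ± 0.14, edgeR adjusted p = 0.000344). No library of either group came near the other group. H1fx fell by 1.05, H2afx (H2A.X, which marks DNA breaks when phosphorylated) by 0.58 and H3f3a by 0.49 on the log2 scale, and H2afy2, a macroH2A gene, rose by 0.95. H3f3b, the other H3.3 gene, was at 889, 1080 and 910 CPM against 851, 885 and 873 CPM (-0.14 ± 0.11, edgeR adjusted p = 0.353), and H1f0 did not pass (-0.47, edgeR adjusted p = 0.0843), although it did without control 3 (-0.68, edgeR adjusted p = 0.00452). The calls of H1fx (-1.12 without PhenDC3 library 1, -1 without library 3), H2afx (lost with any library but control 1 left out, -0.65 to -0.38) and H2afy2 (0.85 to 1.01 without control 1, PhenDC3 library 1 or 2) did not hold with each library left out. The median of the 11 was -0.47.

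Factors that make, process or degrade histone mRNA were mixed. Of 21 tested, 5 fell, 2 rose and 14 did not pass, beside 18.7% of all genes that fell and 18% that rose in that fit. Slbp, the stem-loop binding protein, was at 147, 164 and 149 CPM in controls and at 112, 104 and 110 CPM with PhenDC3, without overlap (-0.50 ± 0.10, edgeR adjusted p = 0.00589). Lsm1, part of the ring that takes part in decay of oligouridylated RNA, fell by 0.63, Cpsf3, the endonuclease that cuts both histone and polyadenylated pre-mRNAs, by 0.47, and Lsm10, a U7 particle subunit, by 0.44 on the log2 scale. Srrt fell by 0.39. The terminal uridylyltransferases Zcchc6 and Zcchc11 rose by 0.78 and 0.61. The calls of Lsm1 without PhenDC3 library 1 (-0.61) and of Zcchc11 without control 1 or 2 or PhenDC3 library 1 or 3 (0.46 to 0.63) were lost. Npat was at 52.7, 41.3 and 65.0 CPM against 59.4, 51.4 and 77.6 CPM, with overlapping groups (0.24 ± 0.20, edgeR adjusted p = 0.354). Of 19 histone chaperone and import genes, 4 fell and 1 rose, beside the same shares of all genes. Chaf1b, a subunit of the assembly factor CAF-1, fell by 0.78, Ipo4, Asf1a and Rbbp7 by 0.43, 0.42 and 0.32, and Hjurp, the chaperone of CENP-A, rose by 1.05. Leaving out 1 library ended the call of Ipo4 in all cases but control 2 (-0.50 to -0.30) and that of Asf1a for control 2, PhenDC3 library 1 and PhenDC3 library 3 (-0.39 to -0.33).

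Of 20 S-phase genes, 9 fell, none rose and 11 did not pass, beside 18.7% of all genes that fell and 18% that rose. Their median log2 fold change was -0.33. None rose at an unadjusted p of 0.05 or by DESeq2, which called 10 lower. Ccne1, which encodes cyclin E1, was at 270, 272 and 267 CPM in controls and at 103, 87.9 and 91.3 CPM with PhenDC3 (-1.52 ± 0.11, edgeR adjusted p = 6.77e-05). The spread within each group was small beside the distance between them. Tk1, Cdt1 and Rrm2, which serve nucleotide supply and origin licensing, fell by 1.07, 0.75 and 0.66. Pcna, Tyms, Mcm2 and Mcm6 were also among the 9. Cdc6, E2f1 and Mcm7 had fold changes of -0.01, 0.06 and 0.05 and did not pass. The part of the cell cycle distribution in the histone values was not tested.

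RNAs that share with histone mRNAs the lack of a poly(A) tail were looked at beside them. Rmrp, the RNA of RNase MRP, was at 33.1, 34.6 and 10.8 CPM in controls and at 3.12, 0.878 and 9.29 CPM with PhenDC3 (-2.55 ± 0.71, edgeR adjusted p = 0.0235). Control 3 and PhenDC3 library 3 came close to each other, and the call was lost when control 1 (-2.35), control 2 (-2.3), PhenDC3 library 1 (-2.34) or PhenDC3 library 2 (-2.07) was left out. Without PhenDC3 library 3 the fold change was -3.68. Rpph1, the RNA of RNase P, was at 6.70, 20.2 and 4.37 CPM against 2.46, 0.836 and 4.61 CPM, with overlap (-1.96 ± 0.66, edgeR adjusted p = 0.0435), and DESeq2 did not call it. Its call was also lost when control 1 (-2.21), control 2 (-1.06), PhenDC3 library 1 (-1.91) or PhenDC3 library 2 (-1.55) was left out. Rnu73b was the third that could be tested with the standard filter and did not pass (0.17, edgeR adjusted p = 0.767). Terc, with 36 summed counts, was removed by that filter, and its result in the fit with at least 30 summed counts is not given here. Terc was at 0.326, 0.502 and 0.346 CPM in controls and at 0.139, 0.0418 and 0.109 CPM with PhenDC3, without overlap. Rnu11, Rnu12 and Vaultrc5, with fewer reads, had overlapping groups, and 6 of the 13 listed RNAs had no row in the table. The 80 snoRNA and scaRNA rows, whose RNAs also lack a poly(A) tail but lie mostly in introns of host transcripts, summed to 229, 218 and 112 CPM in controls and 148, 191 and 168 CPM with PhenDC3, with overlap. Of the 70 that were tested, 3 fell (Snora78, Snord49b and Snord104) and none rose (2 at an unadjusted p of 0.05 and 1 by DESeq2). Among all genes of that fit, 18.7% fell and 18% rose. The median of the 70 was -0.11. The calls of Snord49b (-0.90 to -0.86 without control 1, PhenDC3 library 1 or 3) and Snord104 (-0.81 to -0.58 without control 1, control 2, PhenDC3 library 1 or 3) did not hold with each library left out. The part of RNA selection in the histone values was not tested.

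**Figure D4:**
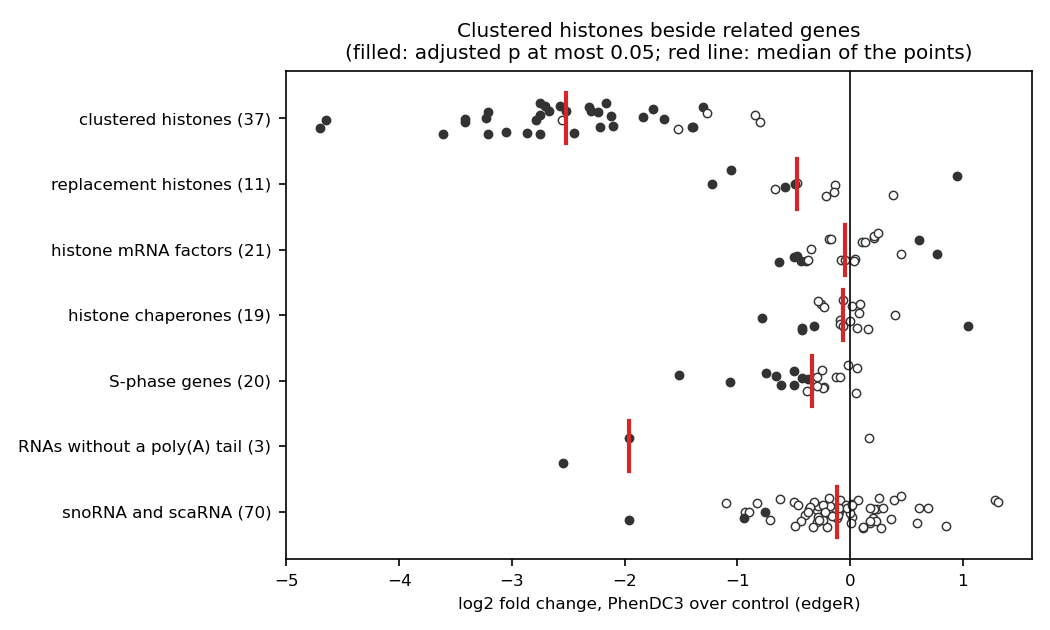
Log2 fold change of single genes, PhenDC3 over control, for 37 clustered histone genes (Hist1h3i, at 0 with PhenDC3, is left out) from the fit with at least 30 summed counts and for the related lists from the fit with the standard filter. Filled points passed the test and red lines are medians of the points; the histone points all lie left of 0.

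SNS-seq peak lists were used to ask whether replication origins lie near these genes and whether their number differed with PhenDC3. A peak lay within 2 kb of an annotated start of 38, 36 and 35 of the 38 genes in the 3 control lists and of 36 and 28 in the 2 PhenDC3 lists. The same held for 52.4%, 49.6% and 31.3% of all 21000 genes with a curated mRNA in the control lists and for 52.3% and 37.4% in the PhenDC3 lists. The histone share, 73.7% to 100%, was thus above the share of all genes in each list. Neighbouring genes can share peaks, since cluster genes can lie within a few kb of each other. Hist1h2ae and Hist1h2bg, for example, had the same fold enrichment over background for their strongest peak in all 5 lists. The 38 starts had 66, 42 and 48 different peaks in the control lists and 47 and 29 in the PhenDC3 lists. Means were 36.3 ± 1.53 genes (SD, n = 3) in controls and 32 ± 5.66 (SD, n = 2) with PhenDC3, a difference of -4.33 that is smaller than the distance between the 2 PhenDC3 lists. A comparison of 3 with 2 lists cannot reach a two-sided exact p below 0.2, so none is given.

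In all, 27 of the 38 genes (71.1%) had a peak in at least 2 control lists and in both PhenDC3 lists, against 28.6% of all genes. Hist1h1d was the only one with a peak in at least 2 control lists and in neither PhenDC3 list (2.63%, against 6.38% of all genes). None of the 38 had peaks in both PhenDC3 lists alone, against 2.11% of all genes, a share too small for 38 genes to show a difference. The strongest peak near the start was compared by its fold enrichment over background as given by the peak caller. The median over histone genes was 11.9, 9.88 and 10.8 in the control lists and 8.69 and 6.81 in the PhenDC3 lists, whereas over all genes it was 6.48, 5.61 and 5.41 against 6.04 and 5.11. Of the 27 genes with a peak in all 5 lists, 13 (48.1%) had both PhenDC3 values below all control values and 2 had both above, beside 23.2% and 8.32% of the 4230 such genes overall. Enrichments are not scaled between lists, and these genes share peaks, so the counts are a description. For Hist1h3b the values were 17, 12 and 25.2 in controls and 5.69 and 5.87 with PhenDC3, with a wide gap between the groups. Hist1h4d had 22.7, 17.9 and 22.8 in controls, 8.88 in PhenDC3 list 1 and no peak in list 2. Hist1h1a had 10.9, 8.41 and 10.8 against 5.09 and 5.94. Hist1h2bn went the other way, with 6.81, 9.98 and 6.69 in controls and 11.1 and 14.3 with PhenDC3, while its RNA fell. RNA and SNS values come from different libraries.

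**Figure D5:**
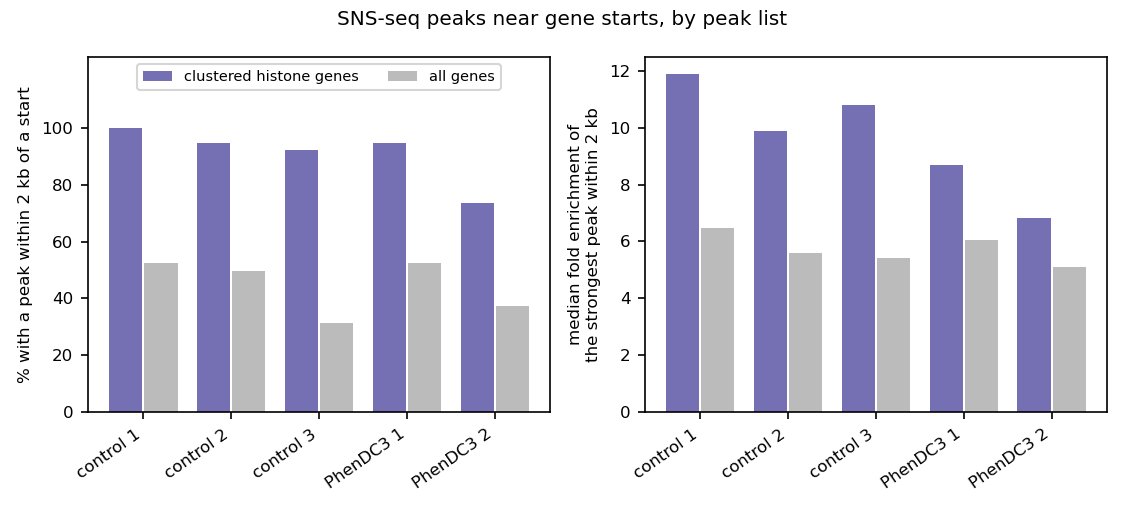
Left, percentage of the 38 clustered histone genes and of all 21000 genes with an SNS-seq peak within 2 kb of an annotated start in each peak list; right, median fold enrichment of the strongest such peak. The histone bars are above those of all genes in all 5 lists, and PhenDC3 list 2 has the lowest histone bars.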

How the data were processed

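RNA libraries were made with a stranded mRNA kit. The authors mapped reads with TopHat2 2.1.1 and Bowtie2 2.2.9 and deposited raw counts per gene from HTSeq 0.6.1p1; the strand setting and the treatment of reads with several alignments are not given in the sources used here. The authors called SNS-seq peaks for each sample with MACS2 2.1.0 on mm10, and the deposited lists give fold enrichment (a ratio) and −log10 p. Deposited fold changes and p-values of the authors' own comparison were not used.

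Counts were fitted with edgeR 4.0.16 (RLE factors, filterByExpr, robust two-sided quasi-likelihood F test, Benjamini-Hochberg adjustment), in R 4.3.3. The same fit on all genes with at least 30 summed counts, DESeq2 1.42.0, TMM factors, non-robust estimation, a replicate block and each library left out were alternatives. Standard errors are the fold change over the root of F. CPM are counts over the RLE-scaled library size. The fits were tested on simulated data. Intervals cover 95%. Members, lists and tests were chosen with earlier results of these data known. Text names members with an adjusted p of at most 0.05, the 2 with most counts per class, the largest changes and those at 30 to 60 counts, up to 4 passing genes per list, and a few fixed ones; Hist2h4 and other genes outside this rule were named after their values were seen. Members were matched to RefSeq by Entrez ID (38 of 38). Depth per library was 22232014 to 29486502 counts.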

Additional observations from a re-analysis of the deposited data

How the results depend on the processing

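The number of clustered histone genes called lower was 14 of 15 tested with the standard filter, 29 of 38 by DESeq2 and 33 of 38 with the filter of at least 30 summed counts; more of the 38 are tested by the last 2. With 1 library left out and the standard filter refitted, it was 7 of 15 tested without control 1, 21 of 23 without control 2, 18 of 22 without control 3, 12 of 28 without PhenDC3 library 1, 20 of 29 without library 2 and 23 of 28 without library 3, and the median log2 fold change ranged from -3.63 to -1.96, beside -2.32 with all libraries. In the fit of all 38 genes, leaving out 1 library (chosen after seeing the data) gave 14 to 33, with 14 without PhenDC3 library 1 and 16 without control 1, and TMM factors, non-robust estimation and the replicate block each gave 33. The summed share of the histone genes, PhenDC3 over control, was 0.213 and ranged from 0.151 to 0.271 with 1 library left out. No histone gene was called higher by edgeR or DESeq2 under any of these settings. With the standard filter and all libraries, the 15 genes entered through the controls, where their levels were higher. The number tested also changed between refits, so the counts with that filter are no separate support. Deviations from the group means correlated at 0.0904, 0.544 and 0.405 between same-numbered control and PhenDC3 libraries. The first pair did not exceed 0.1, so the numbers were not taken to pair the samples. Yet every library correlated best with its own number, and the library labels are numbered through each same-numbered pair in turn. A pairing is thus not excluded. With the replicate block, 13 of 15 were lower with a median of -2.37, Hist2h2bb (-2.51), Rmrp (-2.64) and Rpph1 (-1.76) lost their calls, Npat (0.25, edgeR adjusted p = 0.0342) and H1f0 (-0.45, edgeR adjusted p = 0.00446) gained one, and 26.4% of all genes were called lower. For SNS-seq, the difference of -4.33 genes became -5.67 within 1 kb, -5.83 with equal numbers of strongest peaks and -5 in the replicate block, and ranged from -8.33 to -0.333 with 1 list left out, the smallest without PhenDC3 list 2. Low counts limit single genes: most have fewer than 100 reads in all.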
